A study of Mus musculus with 6 samples.

Results

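The Il10 cytokine cluster is a stretch of mouse chromosome 1 named for the genes Il10, Il19, Il20 and Il24. It was examined here for sites of T-bet binding, as every deposited peak that overlapped the window from 132820000 to 133120000 on chromosome 1 of mm9, a span of 300 kb. The window held 12 of the 8925 peaks in the 3 peak lists of the series: 0 of the 78 peaks of T-bet knockout (KO) cells, 10 of the 7996 peaks of wild-type (WT) replicate 1 and 2 of the 851 peaks of WT replicate 2. The peaks came from chromatin immunoprecipitation and sequencing (ChIP-seq), in which crosslinked chromatin is pulled down with an antibody and the recovered DNA is sequenced.

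The KO cells were induced regulatory T cells (iTreg) from T-bet-KO mice, 1 library, and they were set against WT iTreg, 2 libraries. All were labelled Balb/c, and the KO allele is not described in the sources used here. In both genotypes, naive CD4+ cells were sorted from spleen and lymph nodes of mice aged 4 to 10 weeks and stimulated on plates coated with anti-CD3 and anti-CD28 at 10 µg/ml each. They were cultured for 7 days with 33 ng/ml TGF-β1, the cytokine that drives naive cells towards the regulatory fate, and 20 ng/ml IL-2, a T-cell growth factor. All 3 ChIPs used the same rabbit serum against T-bet, so peaks of KO cells, which lack the target, show what the serum recovers without it. The cells were made in culture, and their purity is not given. Input libraries were not analysed here.

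T-bet, encoded by Tbx21, is a T-box transcription factor known for directing T helper 1 cells, and a share of regulatory T cells also expresses it. Il10 encodes interleukin-10, a cytokine that restrains inflammation and through which regulatory T cells act on other cells, and in T cells the gene is known to be controlled in part by distal elements on either side of it. Il19, Il20 and Il24 encode related cytokines that signal through receptors containing the IL-20 receptor subunits and act mostly on epithelial cells. The order of protein-coding genes in RefSeq was Fcmr, Il24, Il20, Il19, Il10, Mapkapk2, Dyrk3, Eif2d and Rassf5. Il10 therefore stood at one end of the cytokine genes, next to Mapkapk2, which encodes a kinase of the p38 stress pathway. That annotation is of GRCm38.p6, not of the build of the peaks, so only its gene order was used. No peak was assigned to a gene, and whether the bodies of all 4 cytokine genes lie inside the window was not checked. The window may leave out Il20 and Il24 and take in Mapkapk2, Dyrk3, Eif2d and some of Rassf5, so its peaks stand for the interval and not for the cytokine genes. No list held a further peak within 100 kb of either edge.

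Promoter sequences were at hand for 2 of the 4 genes, Il19 and Il20, and are shown because the T-box factors are known to recognise DNA around a GTGTGA core. Each runs 5′ to 3′ on the minus strand of GRCm38.p6, from 250 bases before the gene's start to 50 after it, at chr1:130940066-130940365 for Il19 and chr1:130911247-130911546 for Il20. These positions cannot be set beside those of the peaks. Capitals mark GTGTGA.
Il20: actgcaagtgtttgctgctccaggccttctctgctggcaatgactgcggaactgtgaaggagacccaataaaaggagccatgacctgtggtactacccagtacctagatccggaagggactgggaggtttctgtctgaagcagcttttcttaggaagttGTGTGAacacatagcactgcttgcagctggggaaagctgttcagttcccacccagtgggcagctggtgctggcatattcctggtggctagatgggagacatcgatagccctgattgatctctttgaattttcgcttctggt
Il19: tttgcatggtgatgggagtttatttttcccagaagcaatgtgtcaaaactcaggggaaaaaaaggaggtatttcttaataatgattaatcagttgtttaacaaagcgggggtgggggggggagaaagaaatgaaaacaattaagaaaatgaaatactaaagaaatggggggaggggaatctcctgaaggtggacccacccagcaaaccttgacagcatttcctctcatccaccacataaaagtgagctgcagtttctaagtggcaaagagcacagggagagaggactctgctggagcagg
GTGTGA, or its reverse complement TCACAC, occurred 1 time in the Il20 promoter, and the longer GGTGTGA, which contains it, did not occur on either strand. In the Il19 promoter neither string was present. Of all 32851 promoters of that length in the table, 14.5% held GTGTGA and 3.98% held GGTGTGA on either strand. A match of this kind describes the letters and is not a binding site.

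T-bet KO cells gave no peak in the window, whereas both WT libraries did. The nearest KO peak on chromosome 1 lay 47.7 Mb to the left of the window, from 85096302 to 85097571, and the list held no KO peak to its right on that chromosome. The KO list had only 3 peaks on the whole of chromosome 1, and 99.4% of the 300 kb windows of the genome held no KO peak. KO peaks were less rare in windows rich in replicate 1 peaks. Of the 21 windows with exactly 10 replicate 1 peaks, 2 held a KO peak, and of the 65 within 1 of that number, 5 did. Absence from so short a list is therefore the usual case, and it does not show that the window is free of background from the serum. Read depth is unknown for every library, and with 1 KO library no test between genotypes was possible.

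**Figure D1:**
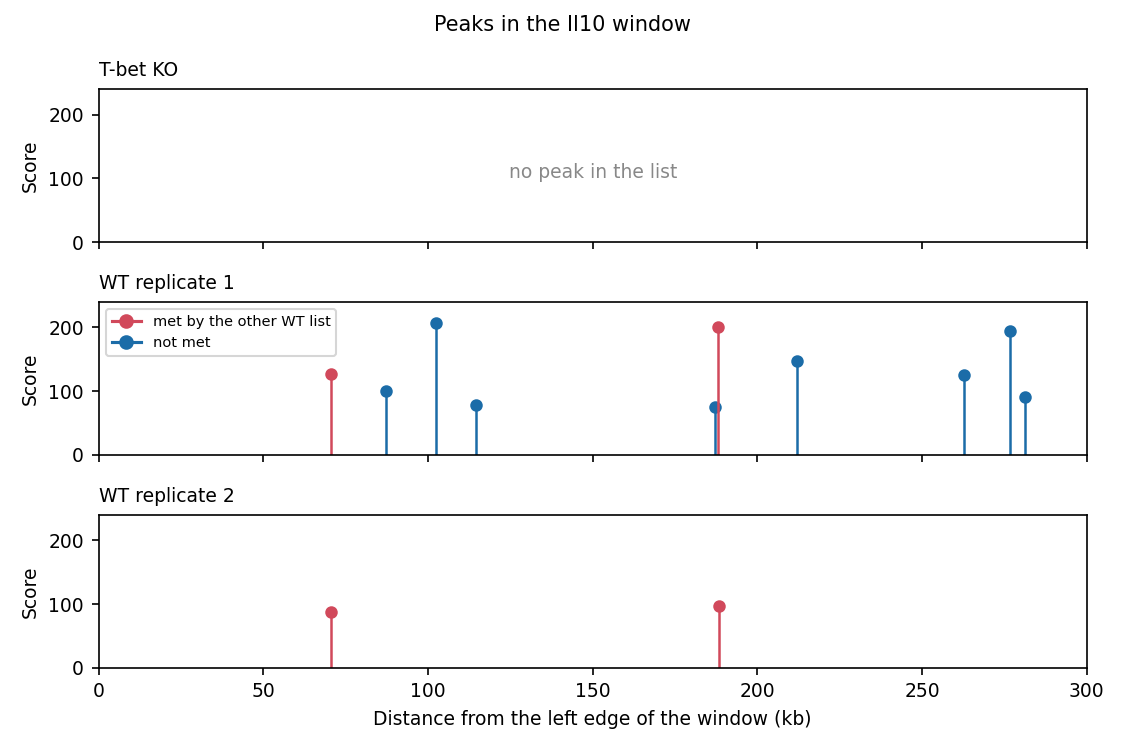
Peaks of the T-bet KO, WT replicate 1 and WT replicate 2 lists, as the score of each peak (vertical axis, the peak caller's own value) against its distance from the left edge of the window in kb (horizontal axis). Peaks met by the other WT list are red and the rest blue. The 10 replicate 1 peaks reached from 70.4 kb to 281.1 kb, and the 2 replicate 2 peaks fell on the first and the sixth of them. Score heights are not comparable between lists.

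Of the 10 WT replicate 1 peaks, 2 were met by a WT replicate 2 peak, with an overlap of at least 1 bp. Over the whole replicate 1 list the share was 9.50%. Seen from the shorter list, both replicate 2 peaks of the window were met by replicate 1, against 85.4% of all replicate 2 peaks. Counts of 10 and 2 peaks are too small to set these shares apart from those of the lists. None of the window's peaks had a KO counterpart, against 0.550% of all replicate 1 peaks and 5.41% of all replicate 2 peaks that had one. The labels do not say whether the WT replicates came from separate mice or cultures.

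The first of the shared sites was the leftmost peak of the window. Its replicate 1 peak ran from 132890418 to 132890650, was 233 bp wide and had a score of 126.58. The replicate 2 peak ran from 132890312 to 132890712, was 401 bp wide and had a score of 87.23. The replicate 2 peak contained the replicate 1 peak whole, and the midpoints were 22 bp apart.

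The second shared site lay 117 kb further right. Here the replicate 1 peak ran from 133007986 to 133008302, was 317 bp wide and had a score of 200.21. The replicate 2 peak ran from 133008120 to 133008412, was 293 bp wide and had a score of 97.04. They had 183 bp in common, which is 57.7% of the replicate 1 peak and 62.5% of the replicate 2 peak. The midpoints were 122 bp apart, so the peaks were offset where those of the first site were nested.

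In replicate 2, both shared sites scored below the median of the list, while in replicate 1 both scored above it. The scores were assigned by the authors' peak caller, and their scale is not stated, so they were ranked within a list only. In replicate 2, 28.7% of all peaks scored lower than the first site and 41.2% lower than the second, and the list's median was 107.85. In replicate 1 the first site ranked 3087th of 7996, with 61.0% of the list lower, and the second 1398th, with 82.5% lower. Among the 760 replicate 1 peaks that replicate 2 met, 20.0% scored lower than the first site and 35.1% lower than the second. Among the 727 replicate 2 peaks that replicate 1 met, the shares were 25.4% and 37.3%. Ranked among shared peaks, both sites thus stood below the median in both replicates.

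The 8 remaining replicate 1 peaks had no replicate 2 counterpart, and the strongest peak of the window was one of them. That peak, from 132922444 to 132922734, had a score of 207.35, and 83.9% of the list scored lower. The nearest replicate 2 peak was 31.7 kb away. The ninth peak, from 133096634 to 133097009, was the widest of the window at 376 bp and had a score of 194.00, with the nearest replicate 2 peak 88.2 kb away. Both scored close to the second shared site, so score alone did not separate the met from the unmet peaks.

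Of intermediate score were the seventh peak, from 133031830 to 133032032 with a score of 147.68, and the eighth, from 133082741 to 133082958 with a score of 126.07. The eighth differed from the first shared site by less than 1 score unit and had no counterpart. The other four unmet peaks scored below 100. Counted from the left, they were peak 2, from 132907166 to 132907315 with a score of 99.63, and peak 4, from 132934644 to 132934798 with a score of 77.65. Peak 10, from 133101102 to 133101326, had a score of 90.14. Peak 5, from 133007208 to 133007361, had the lowest score of the window, 74.44, and lay 624 bp to the left of the second shared site, outside the replicate 2 peak there by 758 bp.

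**Figure D2:**
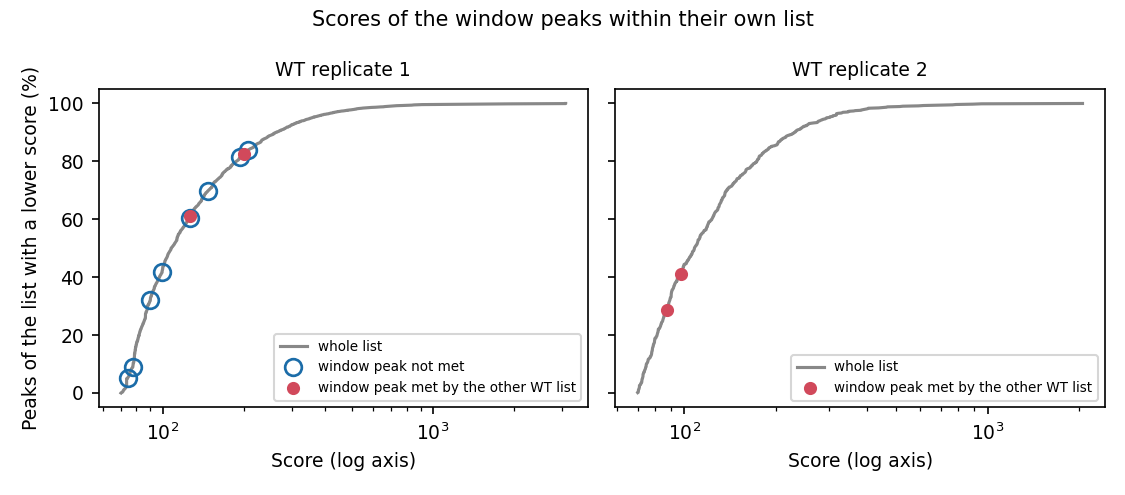
Share of peaks in the list with a lower score (vertical axis, %) against score (horizontal log axis), for the WT replicate 1 and WT replicate 2 lists. The grey line is the whole list, filled red points are window peaks met by the other WT list and open blue points are unmet ones. The replicate 1 peaks spread from 5.3% to 83.9% of their list, and both replicate 2 peaks lay below 50%.

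As a group, the window's replicate 1 peaks were of middling score and none stood among the strongest of the genome. Their scores had a median of 126.32 and a range of 74.44 to 207.35, against a median of 107.66 and a range of 70.13 to 3100 in the rest of the list. At or above the list's median stood 6 of the 10, and none was in the highest score decile, which began at 262.75. Their median width was 221.5 bp, from 150 to 376 bp, against 175 bp in the rest of the list, and 7 of 10 were wider than that median. In replicate 2, the window's peaks had a median width of 347 bp against 353 bp in the rest.

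The recurrence of the window's peaks was read against that of peaks of like score. In decile 9 of the replicate 1 scores, replicate 2 met 1 of the window's 3 peaks, against 16.6% of all peaks of that decile. In decile 7, it met 1 of 3, against 5.12%. The window's 4 peaks in deciles 1, 4 and 5 were unmet, and the list's shares there were 1.88%, 2.25% and 3.88%. With 1 to 3 peaks in each decile, these counts cannot be told from the shares of the list.

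**Figure D3:**
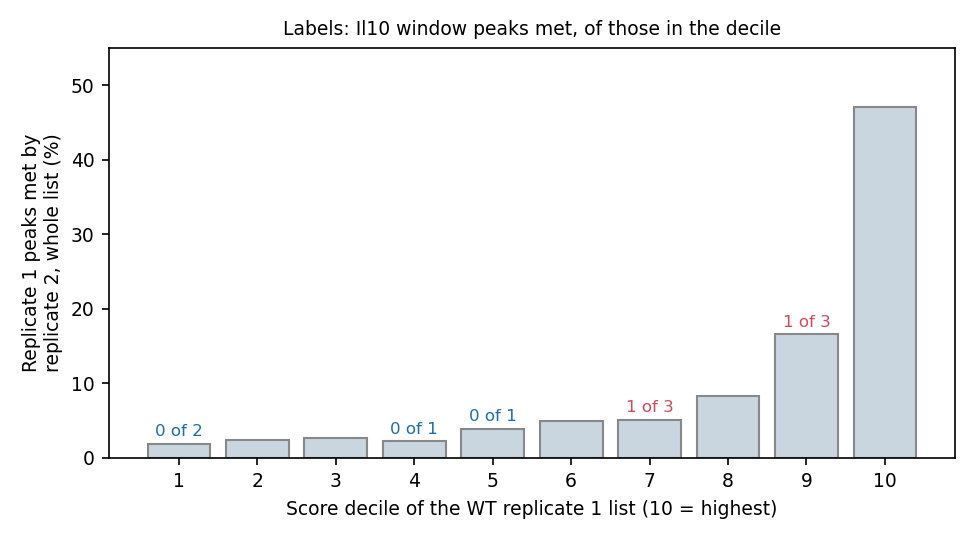
Share of all WT replicate 1 peaks met by a replicate 2 peak (vertical axis, %) in each decile of the replicate 1 scores (horizontal axis, 10 highest). The label above a bar gives how many of the Il10 window's peaks in that decile were met. The window's peaks fell in deciles 1, 4, 5, 7 and 9, and none in decile 10, where 47.1% of the list's peaks were met.

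The peaks lay in a stretch of 211 kb, and a chosen limit of 50 kb split them into groups. From left to right, the gaps between neighbouring replicate 1 peaks were 16.5, 15.1, 11.9, 72.4, 0.624, 23.5, 50.7, 13.7 and 4.09 kb. Their median was 15.1 kb, against 60.2 kb over the 7974 gaps of the whole list. Many peaks inside 300 kb must lie close together, so the lower median restates the density of a window drawn with earlier results known. Split at gaps over 50 kb, the peaks formed a group of 4 over 44.4 kb with the first shared site, a group of 3 over 24.8 kb with the second, and a group of 3 over 18.6 kb with none. The last split rested on the gap of 50.7 kb, just past the limit. In the whole replicate 1 list 46.9% of gaps were below 50 kb, so gaps that split are the more common kind there. The peaks together covered 2322 bp, or 0.774% of the window.

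Beyond the stretch, no list held a further peak for some distance. The first 70.4 kb of the window were empty in replicate 1, and the next peak to the left, with a score of 107.90, was 276 kb from the first peak. To the right of the last peak, 329 kb were empty before a peak with a score of 197.55. Empty stretches of that length were common in replicate 1, where 23.0% of gaps were at least as long as the left one and 20.5% as long as the right one. In replicate 2, the nearest peaks outside the window lay 2.09 Mb to the left and 5.38 Mb to the right. That list had only 70 peaks on the whole of chromosome 1, so its peaks are far apart in general. The share of its gaps that were as long was not computed.

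The window held more WT peaks per Mb than the rest of the genome. Its KO density was 0 per Mb (95% interval 0 to 12.3), against 0.0296 per Mb on the rest of the autosomes and X. In replicate 1 it held 33.3 peaks per Mb (exact Poisson 95% interval 16.0 to 61.3), against 2.86 on the rest of chromosome 1 and 3.02 on the rest of the autosomes and X, an 11.0-fold higher density than that larger region. In replicate 2 it held 6.67 per Mb (0.807 to 24.1), against 0.345 and 0.322. The intervals cover counting error over peaks only and treat peaks as independent. Replicate 1 peaks were unevenly spread, with 65.4% of 300 kb windows empty and 21 peaks in the fullest, so the intervals may be too narrow. The window was drawn with earlier results of these data known, so its density is a description and not evidence that the cluster attracts binding.

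Adjoining windows of 300 kb, laid from the start of each autosome and X, gave the same count for the whole genome. Of 8786 windows, 0.819% held at least 10 replicate 1 peaks, 1.73% held at least 2 replicate 2 peaks and 0.512%, or 45 windows, held both. Most windows were empty in replicate 1, at 65.4%, and the fullest held 21 peaks. The fixed grid cut the Il10 window: its right part fell in a grid window with 9 replicate 1 peaks and 1 replicate 2 peak, and 0.865% of all grid windows held at least that many of both. The Il10 window was also set beside grid windows with a like number of replicate 1 peaks. The 21 grid windows with exactly 10 replicate 1 peaks held a median of 2 replicate 2 peaks, from 0 to 6, with 8 windows above 2 and 8 below. A KO peak was present in 2 of these 21 windows, whereas 99.4% of all windows held none. The 65 grid windows within 1 of that number held a median of 1 replicate 2 peak, from 0 to 6, with 17 windows above 2 and 40 below, of which 24 held none.

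**Figure D4:**
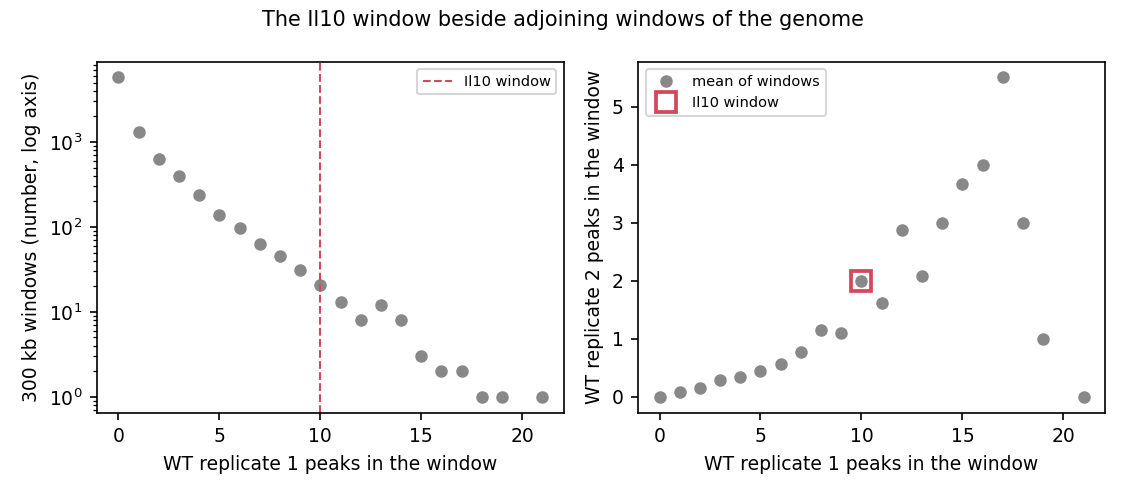
Adjoining 300 kb windows of the autosomes and X, with the number of windows on a log axis (left) and the mean number of WT replicate 2 peaks (right) against the number of WT replicate 1 peaks in the window. The Il10 window, marked in red, had 10 replicate 1 and 2 replicate 2 peaks, and the grid windows with 10 replicate 1 peaks had a mean of 2 replicate 2 peaks.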

How the data were processed

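ChIP-seq peak lists of 3 libraries were analysed: 1 of T-bet KO and 2 of WT iTreg cells, grouped by their titles. The deposited lists give a score per peak, set by the authors' peak caller. CASAVA, Bowtie2, MACS 1.4 and mm9 are named in the submitters' processing notes; their settings and controls are not given there. Peaks were called per library, with 1 list each. The names of the KO and WT replicate 2 lists share a leading number that replicate 1 lacks; what it marks is not stated, and if it is a batch, it cannot be told apart from what sets replicate 1 off. Per the labels' protocols, libraries of 150 to 350 bp were read for 35 or 50 bases. Read depth is unknown, no score was below 70.10, and a site absent from a list is not shown to be unbound.

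Starts were converted from BED to positions counted from 1. Peaks sharing at least 1 bp were counted as met. Chromosome lengths came from GenomeInfoDb 1.38.1, and peaks were put into adjoining windows by their midpoints. Every peak in the window was named, by rule. No test was made: peaks are not replicates, and there was 1 KO library. Promoters came from RefSeq (GRCm38.p6). Motifs in peaks, and peaks at other genes of the IL-10 pathway, were planned but not examined, since both need mm9 sequence or gene positions. The counting steps were checked on simulated data. Python 3.11.15, numpy 2.4.6, pandas 2.3.3, scipy 1.17.1 and matplotlib 3.10.9 were used. The window and the comparisons were chosen with earlier results of these data known.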

Additional observations from a re-analysis of the deposited data

How the results depend on the processing

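Of 31 alternatives, 21 left the value unchanged, within 1.5 times that reported or, for the share of windows, within its exact 95% interval. Some of these 21 could not have moved, so the tally overstates stability. A score cut or merging cannot raise a KO count of 0. Leaving out replicate 2 cannot change the 10 WT sites without a KO peak, since both its peaks fell on replicate 1 peaks. Widening the window by 100 kb on each side, counting by midpoints or merging peaks within 500 bp left 0 KO, 10 WT replicate 1 and 2 WT replicate 2 peaks. These counts could not have moved either. The nearest outside peak of any list lay 206 kb from an edge, and every window peak lay at least 18.7 kb inside. The smallest gap between neighbouring replicate 1 peaks of the window was 624 bp. A reciprocal overlap of 50% or midpoints within 250 bp left 2 shared peaks. A score of at least 100 left 6 replicate 1 peaks, 0 replicate 2 peaks and 0 shared peaks, because both replicate 2 peaks of the window scored lower. At a score of at least 90, added after seeing the data, 1 replicate 2 peak and 1 shared peak remained. No window peak was among the 851 highest of replicate 1, whose lowest score was 256.22, so that setting gave 0 shared peaks. WT sites without a KO peak numbered 2 without replicate 1 and 10 without replicate 2. With KO peaks extended by 1 kb they numbered 10, which was fixed too, since the nearest KO peak lay 47.7 Mb from the window. The share of 300 kb windows at least as full, 0.512%, was 0.410% with windows shifted by 150 kb, 1.34% at a score of at least 100, and 0.819% to 1.73% with 1 WT list left out. The last settings changed the criterion. At a score of at least 100, the bar fell to 6 replicate 1 and 0 replicate 2 peaks. With a list left out, only the other list's count was required. Those shares are thus not like measures of 0.512%. No paired analysis was possible because the KO group has 1 library and the inputs were not analysed here. Depth, which is unknown, limits all comparisons between lists.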
